A study of Mus musculus with 18 samples.

Results

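The genes described here encode cargo of the pancreatic zymogen granule and proteins that move the granule to the plasma membrane and fuse it there. They were chosen by name: 5 cargo genes (Gp2, Zg16, Sycn, Cuzd1 and Rnase1) and 5 machinery genes (Rab3d, Rab27b, Vamp8, Vamp2 and Stxbp2), 10 of the 46603 genes in the count table. All 10 members were found by symbol and all 10 passed the filter on low counts, as did 13203 genes in all. No measured value was used to choose them, although earlier results of these data were known.

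RNA was sequenced from pancreatic exocrine cells of xCT KO mice (xCT-/-, lacking the cystine/glutamate antiporter encoded by Slc7a11) and of WT mice (xCT+/+). Cells were taken at isolation (day 0) and after 1 and 4 days of suspension culture in Advanced RPMI medium, a setting in which acinar cells lose their differentiated state. The 6 groups are therefore KO and WT cells at day 0, KO and WT cells at day 1, and KO and WT cells at day 4, with 3 libraries each and 18 in all. The cultured fraction is exocrine tissue rather than sorted acinar cells. The methods of the study speak in general of biological repeats for mouse primary cells, without tying the sequenced libraries to separate mice, so p-values measure the spread between these libraries, which may be technical.

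Acinar cells package digestive enzymes into zymogen granules that wait beneath the apical membrane. Hormone and nerve signals raise cytosolic calcium, and the granules then fuse with the membrane and with each other. Small GTPases of the Rab family mark and tether the granule, vesicle-associated membrane proteins (VAMPs) on the granule pair with syntaxins and SNAP proteins on the target membrane, and Sec1/Munc18 proteins chaperone the syntaxins. Acinar cells make the cargo in bulk, whereas most of the machinery is shared with other secretory cells.

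Library totals ranged from 12127474 to 20135435 counts. Slc7a11 had 1 to 33 counts in the 9 KO libraries and 48 to 2286 counts in the 9 WT libraries, and KO was lower at each day. Transcripts of 21 other granule cargo genes, mostly digestive enzymes, took 70.9–72.5% of counts in KO and 70.0–71.4% in WT at day 0. The share was 59.6–60.0% in KO and 61.9–63.0% in WT at day 1, then 9.48–11.3% in KO and 11.6–16.1% in WT at day 4. Because so large a share of the RNA was lost, the scaling matters. Levels below are CPM, the counts of a gene relative to the scaled size of its library, with the scale set by the trimmed mean of M values (TMM), which sets the typical gene level, and shares of all counts in a library are given beside them. When libraries were scaled by their totals instead, the median gene rose by 0.998, 2.03 and 3.10 on the log2 scale in WT for day 1 against day 0, day 4 against day 1 and day 4 against day 0, and by 1.29, 1.86 and 3.23 in KO. A TMM-scaled change is a change relative to that shift. One library, WT day 4 replicate 3, stood apart from the other WT day 4 libraries (chi-square per gene 25 and 31 against them, and 7.22 between the other 2), with 16.1% of its counts from other granule cargo against 11.6% and 12.03%. Results that rest on it are given with and without it.

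The cargo genes fell together, and the stretch before the start site of 3 of them is shown so that the letters searched for acinar factor motifs can be seen. The table of RefSeq promoters used here (GRCm38.p6) gave the 250 bases before the RefSeq start for 7 of the 10 members. For Rab3d, Vamp8 and Stxbp2 that stretch runs into the gene as annotated for the counts. The most abundant member at day 0 was Rnase1 (minus strand, chr14:51146768-51147017). Sycn (plus strand, chr7:28540635-28540884) is a cargo member that was called lower in KO at days 1 and 4. Cuzd1 (minus strand, chr7:131322293-131322542) was the only cargo member shown with a match to a searched motif, printed in capitals.
Rnase1: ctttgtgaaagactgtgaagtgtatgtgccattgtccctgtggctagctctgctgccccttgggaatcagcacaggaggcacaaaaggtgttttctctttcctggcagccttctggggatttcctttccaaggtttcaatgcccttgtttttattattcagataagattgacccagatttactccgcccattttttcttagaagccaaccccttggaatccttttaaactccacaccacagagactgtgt
Sycn: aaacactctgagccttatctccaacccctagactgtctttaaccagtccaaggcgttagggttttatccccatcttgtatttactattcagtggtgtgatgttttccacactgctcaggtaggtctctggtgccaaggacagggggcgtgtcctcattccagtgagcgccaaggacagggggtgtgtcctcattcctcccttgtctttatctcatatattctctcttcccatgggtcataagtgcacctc
Cuzd1: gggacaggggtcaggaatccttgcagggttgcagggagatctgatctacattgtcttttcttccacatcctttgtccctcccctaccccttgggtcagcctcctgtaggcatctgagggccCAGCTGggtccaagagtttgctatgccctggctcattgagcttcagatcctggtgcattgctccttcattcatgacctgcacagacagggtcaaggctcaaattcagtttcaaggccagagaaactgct
Motifs were searched on both strands, with no overlap between matches. They were the E-box CACCTG, another E-box spelled CAGCTG, the E-box variant CATATG, the half-site AAGGTCA bound by nuclear receptors such as NR5A2, and the motif TTTCCC found beside an E-box in sites of the acinar factor PTF1. CAGCTG was found once in the Cuzd1 stretch and in 13% of 32851 stretches of the same length in the genome. The stretches of Gp2, Sycn, Rnase1, Rab3d and Vamp8 held none of the 5 motifs, and Stxbp2 held 1 CACCTG, a motif found in 17.2% of stretches. The Stxbp2 match lies inside the gene as annotated for the counts. These matches are descriptions of letters and not of binding.

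Over culture, every cargo transcript fell at both steps relative to the typical gene, in both genotypes. By day 4 the fitted drop from day 0 ran from 92.5-fold (Gp2) to 1002-fold (Zg16) in KO and from 64.1-fold (Cuzd1) to 884-fold (Zg16) in WT. The machinery moved far less and not together. Rab3d fell most, Vamp8, Vamp2 and Rab27b fell less by day 4, and Stxbp2 rose, all relative to the typical gene. As shares of all counts, Vamp8, Vamp2, Rab27b and Stxbp2 were higher at day 4 than at day 0, while cargo remained far lower.

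**Figure D1:**
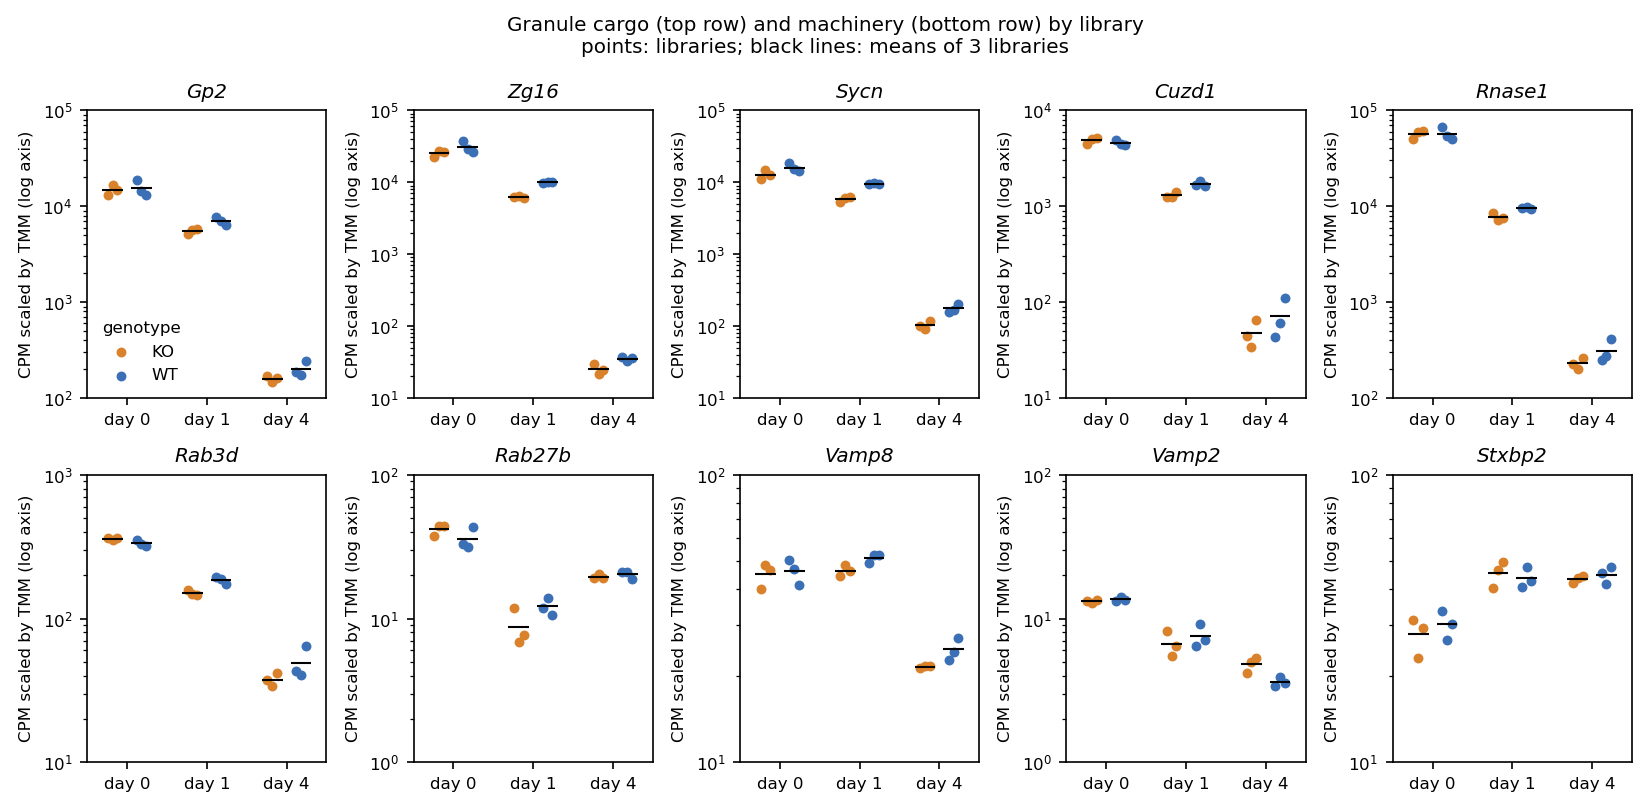
TMM-scaled CPM (log axis) of the 5 cargo genes (top row) and the 5 machinery genes (bottom row) by day, with a point for each library, KO in orange to the left of WT in blue, and black lines at the mean of 3 libraries. All 5 cargo genes are lowest at day 4, Rab27b is lowest at day 1, and Stxbp2 is lowest at day 0.

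Rnase1, pancreatic ribonuclease, lies on chromosome 14 (51145002 to 51146767, minus strand) and was the most abundant member per length at day 0, at 58472 ± 5835 CPM per kb in KO and 58679 ± 8634 CPM per kb in WT (SD, n = 3 each). Its level was 50238, 59215 and 60699.5 CPM in KO at day 0, 8497, 7241 and 7619 CPM in KO at day 1, and 225, 202 and 263 CPM in KO at day 4. In WT it was 66440.3, 53619 and 50696 CPM at day 0, 9476, 9819 and 9387 CPM at day 1, and 249.5, 278 and 409 CPM at day 4. Values of successive days did not overlap in either genotype. Rnase1 had the steepest first step of all 10 members: the log2 fold change for day 1 against day 0 was −2.86 ± 0.17 in KO and −2.57 ± 0.17 in WT (SE; adjusted p = 6.7e-15 and 7.0e-14, edgeR). Across all tested genes 58.1% were called in KO (27.6% lower, 30.5% higher) and 55.4% in WT (26.9% lower, 28.6% higher). At that step 5 of 5 cargo genes were lower in both genotypes, and of the 5 machinery genes 3 were lower and 1 higher.

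Zg16, a lectin-like protein that associates with the granule membrane, had the steepest second step. Its CPM was 22456, 27439 and 26143 in KO at day 0, 6218, 6340.4 and 5955 in KO at day 1, and 29.3, 21.7 and 24.9 in KO at day 4. In WT the values were 38007, 29204 and 26693 at day 0, 9749, 10144 and 10135 at day 1, and 37.2, 33 and 36.1 at day 4. All day 4 libraries were below every earlier library by more than 2 orders of magnitude. For day 4 against day 1, the log2 fold change was −7.93 ± 0.19 in KO and −8.14 ± 0.19 in WT (SE; adjusted p = 1.2e-24 and 1.0e-24, edgeR), at a step where 53.4% of genes in KO (27.1% lower, 26.2% higher) and 52.3% in WT (26% lower, 26.3% higher) were called. Across the whole culture all 10 members were called in both genotypes, 9 lower and 1 higher, beside 64.3% of genes in KO (29% lower, 35.3% higher) and 60.4% in WT (26.9% lower, 33.5% higher). Zg16 was 2nd per length at day 0 and day 1 and 4th at day 4 in both genotypes.

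Sycn, syncollin, a protein of the inner granule membrane face, had the smallest first step of the cargo genes. Its CPM in KO was 10959, 14857 and 12609 at day 0, 5236, 6048 and 6174 at day 1, and 102, 92.6 and 117 at day 4. In WT it was 18688, 15081 and 14189 at day 0, 9339.6, 9715 and 9335 at day 1, and 158, 166 and 206 at day 4. Relative to the typical gene, Sycn was lower at day 1 than at day 0, with a log2 fold change of −1.14 ± 0.14 in KO and −0.76 ± 0.14 in WT (adjusted p = 5.0e-08 and 3.7e-05, edgeR), whereas under library totals it was not lower, at 0.12 ± 0.09 in KO (adjusted p = 0.23) and 0.25 ± 0.09 in WT (adjusted p = 0.015). By day 4 it was lower on both scales, at −5.81 ± 0.17 in KO and −5.74 ± 0.17 in WT against day 1 with TMM, and −3.98 and −3.77 with totals. The ratio of Sycn to Zg16 per length was 0.575 ± 0.037, 1.08 ± 0.11 and 4.73 ± 0.70 in KO at days 0, 1 and 4, and 0.586 ± 0.023, 1.08 ± 0.02 and 5.71 ± 0.82 in WT (SD, n = 3 each), a ratio that scaling does not touch. At each of these steps the ratios of the later day lay above every ratio of the earlier day.

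Gp2, the major glycolipid-anchored glycoprotein of the granule membrane, was 13049, 16445 and 14710.2 CPM in KO at day 0, 5124, 5609 and 5832 CPM at day 1, and 170.0, 147 and 161 CPM at day 4. In WT it was 18731, 14354 and 12972 CPM at day 0, 7655, 7063 and 6314 CPM at day 1, and 189, 175 and 246 CPM at day 4. As a share of all counts Gp2 was slightly lower at day 1 in KO, without overlap, and overlapped day 0 in WT, at 0.496–0.526% in KO and 0.481–0.568% in WT against 0.555–0.596% in KO and 0.548–0.592% in WT at day 0. The day 1 change of Gp2 was −1.42 ± 0.15 in KO and −1.13 ± 0.15 in WT with TMM (SE; both called by edgeR), but −0.16 ± 0.09 in KO and −0.12 ± 0.09 in WT with totals (adjusted p = 0.11 and 0.26). Per length, the ratio of Gp2 to Rnase1 was 0.127, 0.350 and 0.343 in KO and 0.132, 0.360 and 0.325 in WT at days 0, 1 and 4, so that the ratio moved at the first step and its ranges overlapped at the second.

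Cuzd1, a membrane protein with CUB and zona pellucida domains, was the scarcest cargo member per length in every group, while in CPM Zg16 was lower at day 4. KO libraries had 4492, 5021 and 5127 CPM at day 0, 1246, 1235 and 1418 CPM at day 1, and 43.9, 34.3 and 64.7 CPM at day 4. WT libraries had 4897, 4435 and 4303 CPM at day 0, 1664, 1836 and 1621 CPM at day 1, and 43.4, 59.9 and 109.5 CPM at day 4. The 3 day 4 libraries of each genotype spread more widely for Cuzd1 than for Zg16, and WT day 4 replicate 3 was the highest of them for Cuzd1. Its log2 fold change for day 1 against day 0 was −1.91 in KO and −1.41 in WT with TMM (edgeR, both called). With totals it was −0.66 ± 0.25 in KO and −0.42 ± 0.24 in WT (SE; adjusted p = 0.026 and 0.15, edgeR), so the WT fall was not called. For day 4 against day 1 the log2 fold change of Cuzd1 with TMM was −4.77 ± 0.31 in KO and −4.59 ± 0.31 in WT (SE; edgeR, both called).

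**Figure D2:**
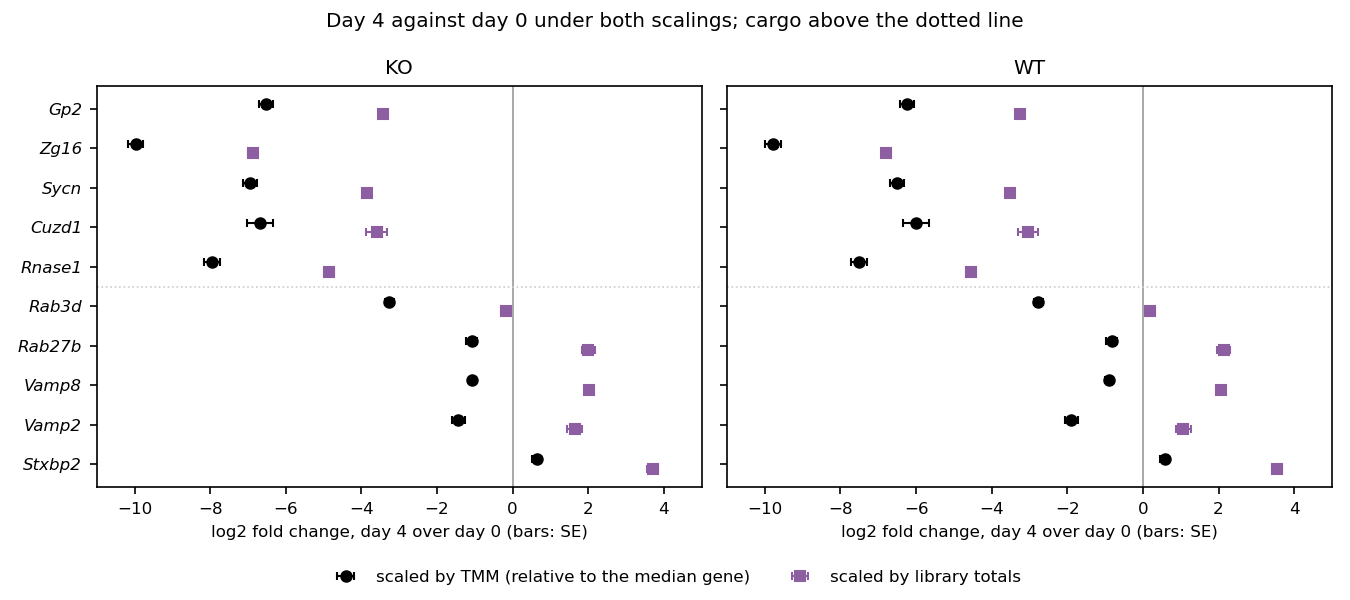
Log2 fold change of day 4 over day 0 (x axis, bars are standard errors) for each member in KO (left) and WT (right), scaled by TMM (black circles) or by library totals (purple squares), with cargo above the dotted line. Cargo lies at −6.002 or below with TMM and at −3.05 or below with totals, whereas Vamp8, Vamp2 and Rab27b lie on opposite sides of 0 under the 2 scalings.

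Rab3d, the Rab GTPase most closely tied to zymogen granules, was the most abundant machinery gene per length at day 0. It had 364, 349.9 and 365 CPM in KO at day 0, 159, 148 and 145 CPM at day 1, and 37.5, 33.7 and 41.6 CPM at day 4. In WT it had 353, 332 and 319.6 CPM at day 0, 194, 188 and 173 CPM at day 1, and 43, 40.8 and 64.1 CPM at day 4. It was the machinery member that fell most relative to the typical gene, with a log2 fold change of −3.26 ± 0.13 in KO and −2.76 ± 0.13 in WT for day 4 against day 0 (SE; adjusted p = 2.2e-19 and 8.5e-18, edgeR). With totals its difference was −0.18 ± 0.12 in KO and 0.20 ± 0.12 in WT (adjusted p = 0.15 and 0.12), and its share of all counts was 0.0112–0.0160% in KO and 0.0111–0.0177% in WT over the 3 days.

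Rab27b, a second Rab of secretory granules, was lowest at day 1. KO libraries had 37.4, 44.1 and 43.7 CPM at day 0, 11.7, 6.89 and 7.66 CPM at day 1, and 19.2, 20.3 and 19.2 CPM at day 4. WT libraries had 32.8, 31.4 and 43.5 CPM at day 0, 11.9, 13.96 and 10.6 CPM at day 1, and 20.9, 21.1 and 18.8 CPM at day 4. Its log2 fold change was −2.24 ± 0.15 in KO and −1.57 ± 0.16 in WT for day 1 against day 0, and 1.15 ± 0.14 in KO and 0.75 ± 0.14 in WT for day 4 against day 1 (SE; all called by edgeR, adjusted p at most 6.4e-05). The day 1 fall also held with totals, at −0.99 ± 0.19 in KO and −0.59 ± 0.19 in WT (adjusted p = 4.6e-05 and 0.0087). The ratio of Rab27b to Rab3d per length was 0.0456, 0.0227 and 0.207 in KO and 0.0424, 0.0258 and 0.170 in WT at days 0, 1 and 4.

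Vamp8, endobrevin, the granule SNARE of compound exocytosis, had 40.1, 48.5 and 46.4 CPM in KO at day 0, 44.4, 48.4 and 46.1 CPM at day 1, and 21.2, 21.7 and 21.6 CPM at day 4. In WT the values were 50.4, 46.9 and 41.4 CPM at day 0, 49.2, 52.5 and 52.6 CPM at day 1, and 22.7, 24.2 and 27.2 CPM at day 4. Days 0 and 1 overlapped in both genotypes, and day 4 lay below both. For day 1 against day 0 the log2 difference was 0.04 (95% interval −0.18 to 0.26) in KO and 0.16 (−0.06 to 0.38) in WT, and for day 4 against day 1 it was −1.11 ± 0.09 in KO and −1.06 ± 0.09 in WT (SE; edgeR, both called). With totals Vamp8 was higher by 0.73 in KO and 0.92 in WT for day 4 against day 1, less than the shift of the median gene at that step.

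Vamp2, synaptobrevin-2, another granule SNARE, was the scarcest or second scarcest member per length in every group. KO libraries had 13.3, 12.8 and 13.4 CPM at day 0, 8.21, 5.46 and 6.42 CPM at day 1, and 4.21, 5.02 and 5.33 CPM at day 4. WT libraries had 13.2, 14.03 and 13.5 CPM at day 0, 6.49, 9.10 and 7.06 CPM at day 1, and 3.41, 3.93 and 3.55 CPM at day 4. These rest on 59 to 337 counts a library. For day 1 against day 0 the log2 fold change of Vamp2 was −0.97 ± 0.18 in KO and −0.85 ± 0.18 in WT (SE; edgeR, both called), and with totals the difference was 0.28 ± 0.20 in KO and 0.14 ± 0.21 in WT (not called).

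Stxbp2, Munc18-2, which binds the syntaxins used by secretory granules, was the only member that rose by day 4 on both scales in both genotypes. It had 31.3, 23.0 and 29.3 CPM in KO at day 0, 40.4, 46.8 and 49.5 CPM at day 1, and 42.1, 43.6 and 44.3 CPM at day 4. In WT it had 33.7, 26.6 and 30.3 CPM at day 0, 40.7, 47.8 and 42.7 CPM at day 1, and 45.3, 41.7 and 47.8 CPM at day 4. Relative to the typical gene the rise came at the first step, by 0.70 ± 0.12 in KO and 0.53 ± 0.12 in WT (log2, SE; adjusted p = 5.6e-06 and 0.00029, edgeR), and days 1 and 4 overlapped. With totals Stxbp2 rose at both steps, by 1.94 and then 1.76 in KO and by 1.53 and then 2.02 in WT (log2, all called). Stxbp2 to Rab3d per length was 0.0780, 0.307 and 1.17 in KO and 0.0910, 0.239 and 0.949 in WT at days 0, 1 and 4. At day 4, Stxbp2 (10.4 ± 0.3 in KO, 10.8 ± 0.7 in WT), Vamp8 (9.31 ± 0.11 in KO, 10.7 ± 1.0 in WT) and Rab3d (8.96 ± 0.94 in KO, 11.8 ± 3.1 in WT) were close in CPM per kb, and in WT the 3 did not differ beyond their spread.

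Markers of other cell types moved over the same days. The summed CPM of 6 duct markers, all detected, was 107–156 in KO and 148–158 in WT at day 0, 459–589 in KO and 552–680 in WT at day 1, and 335–530 in KO and 450–588 in WT at day 4. The paper describes acinar cells themselves gaining duct-like features in this culture, so the duct sum cannot be assigned to duct cells. The sum of 6 mast cell and platelet markers was 20.1–29.9 CPM in KO and 26.5–29.5 CPM in WT at day 0. At day 1 it was 7.30–10.9 CPM in KO and 7.62–11.3 CPM in WT. At day 4 it was 41.1–45.4 CPM in KO and 43.8–51.0 CPM in WT, nearly all of it Kit. All 6 were detected in KO at day 4, while Ms4a2 was at 0 in all WT libraries. The sum of 10 leukocyte markers was at most 26.5 CPM in KO and 59.7 CPM in WT in any library. The number of them detected was 5, 5 and 7 in KO and 10, 9 and 8 in WT at days 0, 1 and 4, with Cd3g at 0 in the KO libraries. The part of other cell types in the levels of the shared machinery genes was not tested, and in bulk RNA fewer cells of a type and less RNA per cell cannot be told apart.

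Set against each other, cargo and machinery drew together over culture. The mean log2 CPM of the 5 cargo genes minus that of the 5 machinery genes, a difference that the scaling of libraries leaves nearly as it is, was 8.43 ± 0.15 in KO and 8.57 ± 0.19 in WT at day 0, 7.30 ± 0.13 in KO and 7.58 ± 0.08 in WT at day 1, and 2.03 ± 0.18 in KO and 2.48 ± 0.21 in WT at day 4 (SD, n = 3 each). No day overlapped another within a genotype. The step was −1.14 in KO and −0.99 in WT for day 1 against day 0, and −5.26 in KO and −5.10 in WT for day 4 against day 1. In shares of all counts, cargo made up 4.44–4.497% in KO and 4.60–4.64% in WT at day 0, 2.40–2.55% in KO and 2.80–2.85% in WT at day 1, and 0.166–0.204% in KO and 0.204–0.278% in WT at day 4. Machinery made up 0.0173–0.0213% in KO and 0.0152–0.0189% in WT at day 0, 0.0226–0.0255% in KO and 0.0218–0.0230% in WT at day 1, and 0.0415–0.0427% in KO and 0.0406–0.0446% in WT at day 4.

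**Figure D3:**
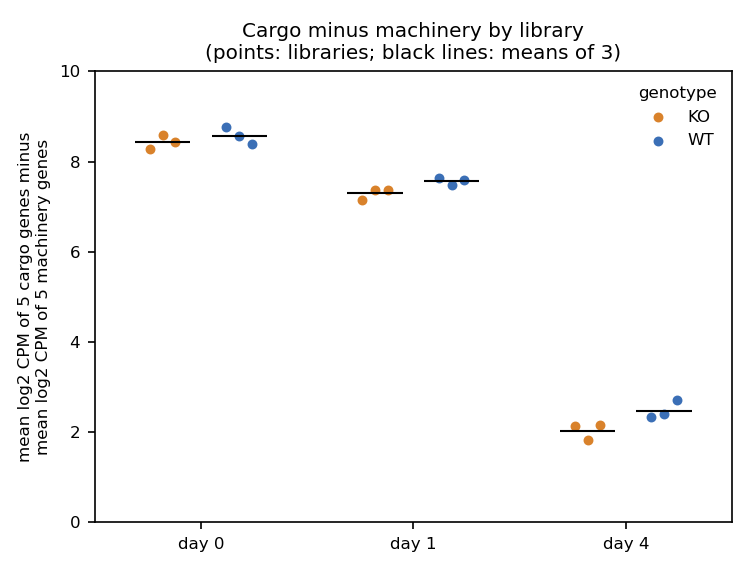
Mean log2 CPM of the 5 cargo genes minus that of the 5 machinery genes (y axis) by day, a point for each library, KO in orange to the left of WT in blue, black lines at the mean of 3. The KO libraries at day 4 lie between 1.83 and 2.15 and the WT libraries between 2.33 and 2.72.

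**Figure D4:**
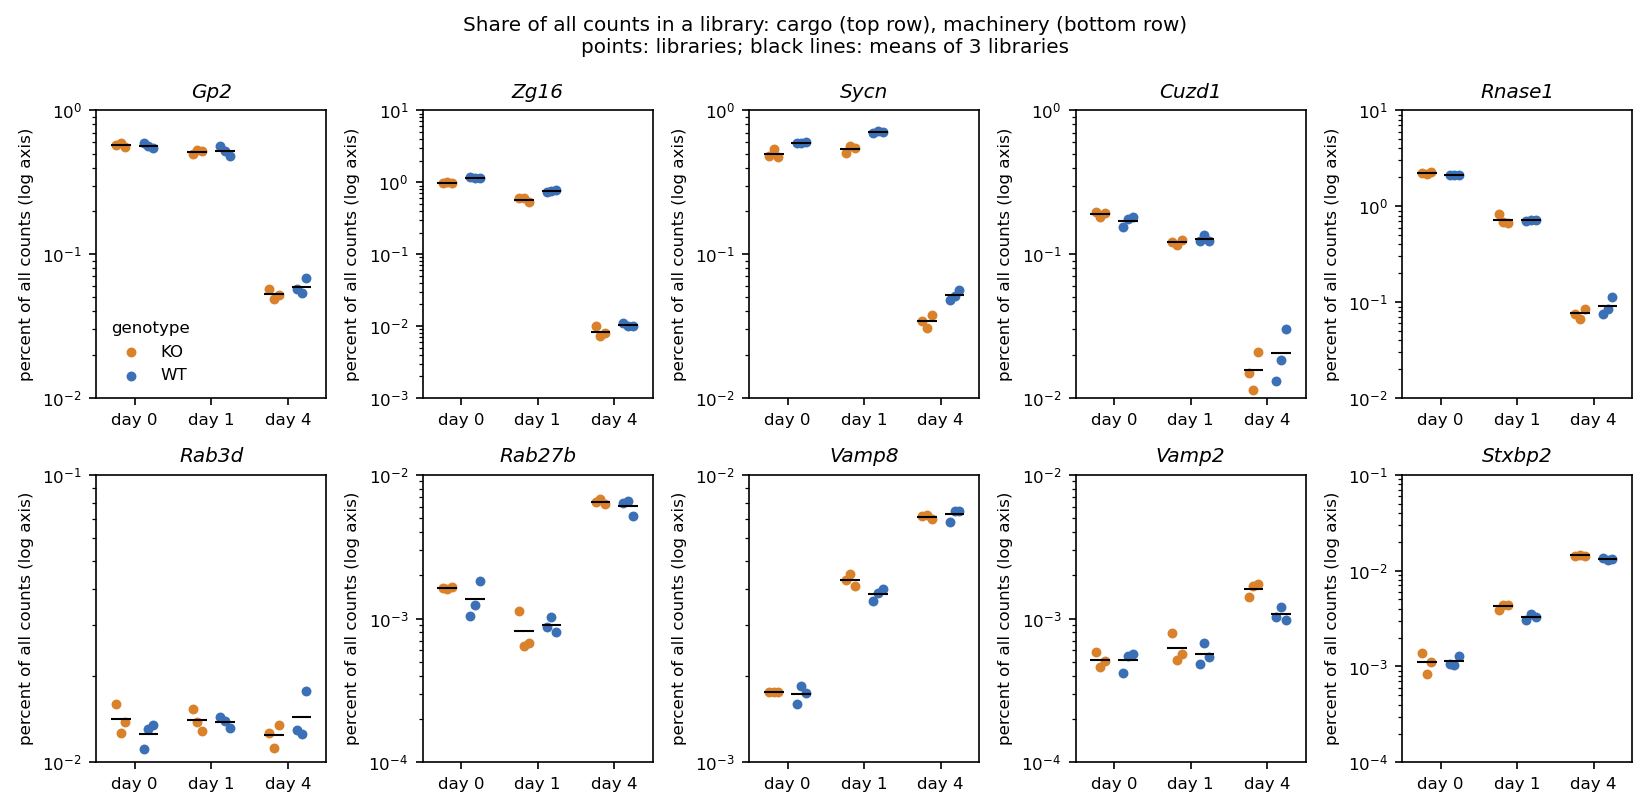
Percent of all counts in a library (log axis) taken by each cargo gene (top row) and machinery gene (bottom row) by day, a point for each library, KO in orange to the left of WT in blue, black lines at the mean of 3. Sycn and Gp2 stay near their day 0 share at day 1, and Vamp8 and Stxbp2 are highest at day 4.

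Members of a class followed each other to different degrees. Across the 18 libraries, which fall into 3 days and share their scaling, Pearson's r of log2 CPM between cargo genes was 0.973 or above. Among machinery genes it ran from −0.81 (Rab27b with Stxbp2) to 0.91 (Rab3d with Vamp2), and Rab3d tracked Rnase1 at 0.995. Among the genes most like the mean of the 5 cargo genes, of 5689 genes averaging 10 CPM or more, were Aqp12, Clps, Cela2a and Ctrl (r from 0.9989 to 0.9996 over 18 libraries), and those most like the machinery mean were P2rx1, Ggh, Atp5g1, Smim14 and Sec61b (r from 0.992 to 0.995).

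The rest of the granule pathway was read from lists by role. Of 21 other granule cargo genes tested, 19 were called lower and 0 higher in WT at day 1 against day 0 (median −1.24, against 0.01 over all genes), and 21 lower at day 4 against day 1 (median −5.43), with the same counts of 19 and 21 in KO. Pnlip, pancreatic lipase, fell to 431 CPM in WT at day 4, against 111286 CPM in WT at day 1. Of 16 secretagogue receptor and calcium signaling genes tested, 11 were lower and 2 higher in WT at day 1. At day 4 against day 1, 2 were lower and 7 higher in WT. Cckar, the cholecystokinin receptor, was among those lower at day 1, at 49.5 ± 5.8 CPM against 671 ± 44 CPM at day 0 (log2 −3.76 ± 0.14). Cckar then rose by 1.08 ± 0.13 by day 4.

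Among 20 SNARE and Sec1/Munc18 genes, 9 rose and 4 fell in WT at day 1, and 3 rose and 7 fell by day 4 against day 1. Stx3, an apical syntaxin, reached 26.3 ± 3.5 CPM in WT at day 1, against 6.15 ± 0.67 CPM at day 0 (log2 2.10 ± 0.16), then fell by 0.97 ± 0.11 by day 4. Of 19 secretory Rabs and effectors tested, 3 rose and 10 fell in WT at day 1. Among them were Myrip, a Rab27 effector, at −2.33 ± 0.29 on the log2 scale, and Sytl2, another, called higher. Sytl2 had 13.7 ± 1.9 CPM in WT at day 1, against 0.14 CPM in WT at day 0. Rab26, a granule-associated Rab, then had 1.40 ± 0.22 CPM in WT at day 4, against 15.9 ± 2.1 CPM in WT at day 1. Of 8 calcium sensor, priming and accessory genes tested, 2 rose and 3 fell in WT at day 1. In WT 1 rose and 1 fell at day 4 against day 1. Of 9 exocyst subunits, 2 rose and 0 fell in WT at day 1, and 3 rose and 0 fell in WT at day 4 against day 1. In KO 3 rose and 2 fell at day 4 against day 1 (background in KO 26.2% higher and 27.1% lower). All of these are TMM-scaled edgeR calls at adjusted p under 0.05, and the background in WT was 28.6% higher and 26.9% lower for day 1 against day 0, and 26.3% higher and 26% lower for day 4 against day 1.

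Between the genotypes the differences were small beside those of culture, and 4 of the 5 calls were of cargo genes. At day 0 no member was called (0 of 10, edgeR; background 1.17% of genes, 0.53% lower and 0.644% higher), with 2 members at an unadjusted p under 0.05 and 0 called by DESeq2. At day 1 Sycn and Zg16 were lower in KO (2 of 10; background 1.45% of genes, 1.18% lower and 0.273% higher). At day 4 Sycn, Zg16 and Rab3d were lower in KO (3 of 10; background 10.2% of genes, 6.39% lower and 3.83% higher).

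The log2 difference of Sycn, KO over WT, was −0.32 ± 0.14 at day 0 (not called, adjusted p = 0.32), −0.70 ± 0.14 at day 1 (adjusted p = 0.0073) and −0.77 ± 0.14 at day 4 (adjusted p = 0.0005, edgeR). In linear terms this was 1.63-fold lower at day 1 and 1.70-fold lower at day 4, and at both days every KO library lay below every WT library. As a share of all counts Sycn took 0.475–0.539% in KO and 0.590–0.599% in WT at day 0, 0.507–0.567% in KO and 0.693–0.718% in WT at day 1, and 0.0309–0.0378% in KO and 0.0478–0.0568% in WT at day 4, with no overlap at any day. With totals the day 1 difference was smaller, at −0.39 ± 0.09 (adjusted p = 0.0075), where the median gene stood 0.32 higher in KO. It was −0.60 ± 0.09 at day 4 with totals (adjusted p = 0.00013). Without WT day 1 replicate 2 the day 1 adjusted p was 0.059, and without WT day 4 replicate 3 the day 4 difference was −0.64 (adjusted p = 0.0042).

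Zg16 was lower in KO at day 1 (log2 −0.70 ± 0.14, adjusted p = 0.0067) and at day 4 (log2 −0.49 ± 0.14, adjusted p = 0.023, edgeR), 1.62-fold and 1.40-fold, with no overlap between KO and WT libraries at either day. At day 0 its difference was −0.30 ± 0.14 (adjusted p = 0.34), with CPM ranges that overlapped. With totals the values were −0.38 ± 0.09 at day 1 and −0.32 ± 0.10 at day 4 (adjusted p = 0.011 and 0.033). Both calls turned on single libraries. Without KO day 1 replicate 2 the day 1 adjusted p was 0.052, and without WT day 1 replicate 2 it was 0.055. The day 4 adjusted p was 0.19 without KO replicate 2, 0.092 without KO replicate 3, 0.10 without WT replicate 1 and 0.053 without WT replicate 3.

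The other cargo genes pointed the same way at day 4 without passing the test: Gp2 −0.35 ± 0.15 (adjusted p = 0.13), Cuzd1 −0.57 ± 0.27 (adjusted p = 0.21) and Rnase1 −0.44 ± 0.16 (adjusted p = 0.075). Without WT day 4 replicate 3 the differences were −0.19 for Gp2, −0.11 for Cuzd1 and −0.20 for Rnase1. Of the 21 other granule cargo genes, 13 were lower and 0 higher in KO at day 4 (median −0.55), beside 6.39% of all genes lower and 3.83% higher. Among the 13 were Clps, Cpb1 and Pnliprp1 at −0.72, −0.78 and −0.79. Without WT day 4 replicate 3 only 1 of the 21 was lower, and calls over all genes were 827 in place of 1350. At day 1 only Ctrc of the 21 was lower in KO (139 ± 8 CPM in KO and 239 ± 16 CPM in WT, log2 −0.78 ± 0.13), and at day 0 none was called.

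Machinery differed less. Rab3d was lower in KO at day 4 (log2 −0.39 ± 0.12, adjusted p = 0.031, edgeR), but its KO and WT libraries overlapped, and without WT day 4 replicate 3 the difference was −0.16 (adjusted p = 0.45). Without KO replicate 1 or KO replicate 2 the adjusted p was 0.092 or 0.20, and with totals the difference was −0.21 ± 0.12 (adjusted p = 0.28). Vamp2 was higher in KO at day 4, with 4.21–5.33 CPM in KO and 3.41–3.93 CPM in WT and no overlap, a log2 difference of 0.42 ± 0.14 that edgeR did not call (adjusted p = 0.059) and DESeq2 did (adjusted p = 0.023). Without WT day 4 replicate 3 that difference was 0.40 (adjusted p = 0.17, edgeR). With totals and all libraries Vamp2 was called higher in KO, at 0.58 ± 0.17 (adjusted p = 0.031). The ratio of Vamp8 to Vamp2 per length was 6.69–8.29 in KO and 10.2–12.6 in WT at day 4, against 4.97–6.27 in KO and 5.04–6.31 in WT at day 0. Stxbp2 and Rab27b were not called, with 95% intervals of −0.26 to 0.16 and −0.31 to 0.21 at day 4, although with totals Stxbp2 was higher in KO at day 1 (0.37 ± 0.12, adjusted p = 0.038).

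**Figure D5:**
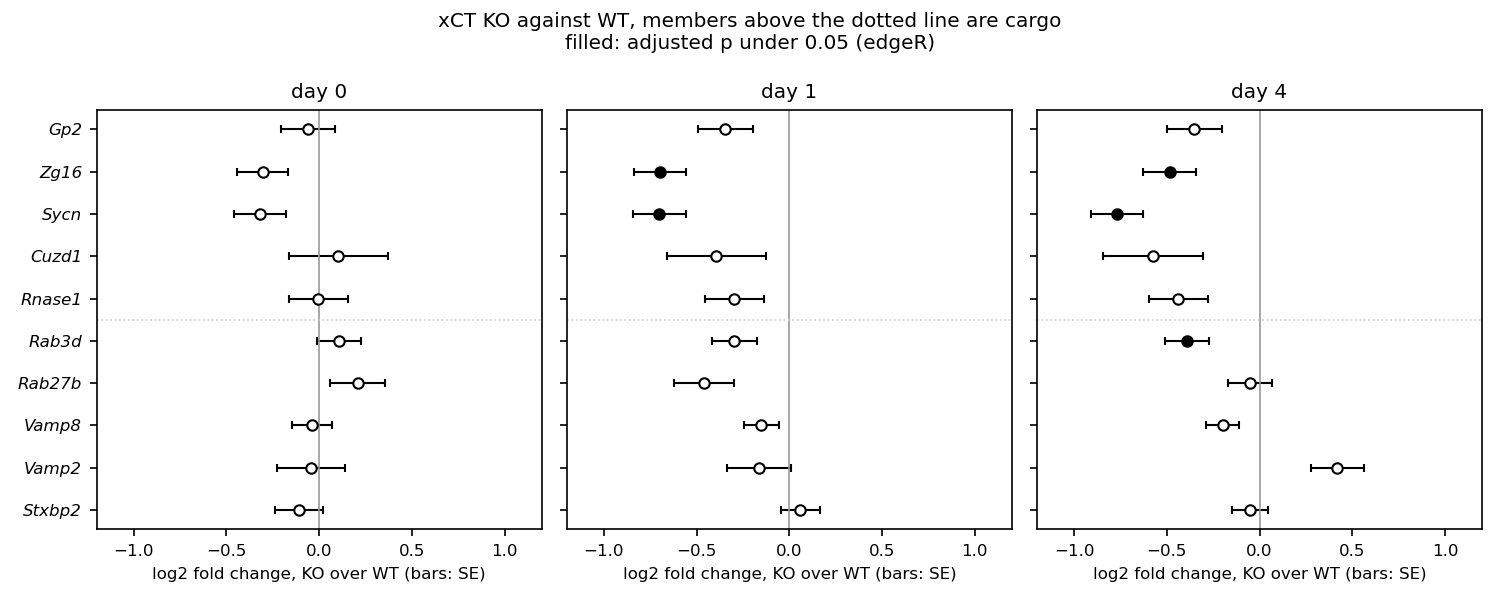
Log2 fold change of KO over WT (x axis, bars are standard errors) for each member at day 0, day 1 and day 4, cargo above the dotted line, with filled circles where the adjusted p is under 0.05 by edgeR. Sycn and Zg16 are filled at days 1 and 4, and Rab3d at day 4.

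Whether the culture response itself differed between genotypes was tested as an interaction, and 0 of 10 members were called at either step by edgeR or DESeq2 (backgrounds 0.0985% at the first step, 0.0833% lower and 0.0151% higher, and 2.6% at the second, 1.67% lower and 0.924% higher), with 2 and 1 members at an unadjusted p under 0.05. The largest were Rab27b at the first step, −0.67 ± 0.22 in KO minus WT (adjusted p = 0.25), and Vamp2 at the second, 0.58 ± 0.22 (adjusted p = 0.19). The cargo minus machinery difference in KO minus that in WT was −0.14 at day 0, −0.28 at day 1 and −0.45 at day 4, and the KO and WT libraries overlapped at day 0 only. Without WT day 4 replicate 3, the WT mean at day 4 was 2.36 in place of 2.48, against 2.03 in KO. The day 4 difference was then smaller, and the KO and WT libraries still did not overlap.

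Beside the day 4 comparison, fibroblast markers differed strongly. The summed CPM of 6 fibroblast markers, all 6 detected, was 24.6–56.0 in KO and 227–313 in WT at day 4, and 10.8–44.9 in KO and 8.45–10.4 in WT at day 1. The summed CPM of 8 islet markers was 246–543 in KO and 222–651 in WT at day 4, and that of the 6 acinar markers was 3668–4220 in KO and 5051–6654 in WT. The acinar markers include Cpa1 and Cela1, which are also counted among the other granule cargo genes. Of the 6, 1 was called higher and 1 lower in KO at day 4 (median log2 −0.09), beside 10.2% of all genes called. Without WT day 4 replicate 3, 1 of them was higher and 0 lower. The part of these cell types in the day 4 differences was not tested.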

How the data were processed

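Single-end RNA-seq libraries were made and sequenced by the authors. They deposited raw counts per gene from featureCounts 1.5.3 (GRCm38, Ensembl annotation), and a table of FPKM values that the authors had quantile normalized. Neither aligner nor strand setting is given in the sources used here, so reads of overlapping genes may be shared. Samples were grouped by genotype and day from the labels. Counts were fitted in edgeR 4.0.16 (R 4.3.3) in one model of 6 groups, with TMM scaling, the default filter on low counts (13203 of 46603 genes kept) and the quasi-likelihood test, and p-values were adjusted by Benjamini-Hochberg over all 13203 genes. Significance was an adjusted p under 0.05. Differences are log2 with standard errors. The mean of log2 CPM used a pseudocount of 0.5. Alternatives were other scalings, filters, DESeq2 1.42.0, limma 3.58.1 on deposited FPKM (pseudocount 0.1), a replicate block and leaving out each library. On simulated data with 200 genes changed 2-fold, 69.5% were recovered for day 1 against day 0 in WT, 75.5% for KO against WT at day 1 and 48% for the interaction from day 0 to day 1. In the first of these every group shared the WT day 0 profile, without the broad shift seen over culture. The 69.5% therefore does not describe recovery in the real day comparison. The members, lists and tests were chosen with earlier results of these data known, and leaving WT day 4 replicate 3 out of the list counts was added after the data were seen. From each list, named genes were the called ones averaging 5 CPM or more that changed most, up to 3 per comparison and direction, and not all of them are printed. Genes of similar pattern were the 5 non-members with the highest Pearson correlation to each class mean, of which 1 is not reported here. Promoter sequences are RefSeq's (GRCm38.p6).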

Additional observations from a re-analysis of the deposited data

How the results depend on the processing

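All 110 member differences kept their side of the threshold, and called ones their direction, under size factors from DESeq2 in edgeR and upper quartile scaling. The same held for a filter of at least 10 counts in every library of a group. It held for 108 with DESeq2 and for 108 without a count filter. A change of sign in a difference called under neither setting was not counted as a change. Scaling by library totals changed 30 and turned the direction of 18 that were called under one or both scalings: Rab27b day 4 against day 0 (1.997 KO, 2.138 WT); Rab3d in WT (0.14 day 1 against day 0, 0.20 day 4 against day 0, 0.063 day 4 against day 1); Stxbp2 in KO day 4 against day 1 (1.76); Sycn day 1 against day 0 (0.12 KO, 0.25 WT); Vamp2 in KO (0.28, 1.64 and 1.36) and WT (0.14, 1.07 and 0.93) for day 1 against day 0, day 4 against day 0 and day 4 against day 1; and Vamp8 day 4 against day 0 (2.02 KO, 2.07 WT) and day 4 against day 1 (0.73 KO, 0.92 WT). By construction totals carry the shift of the median gene. Limma on FPKM turned Stxbp2 in KO day 4 against day 1 (0.30), and called 0 members for KO against WT at day 1, 1 at day 4 and 5 for WT day 1 against day 0. At days 0 and 1 Gp2, Sycn and Cuzd1 each had 1 FPKM value in all 12 libraries, as did Zg16 in the WT libraries. Limma could not call them in comparisons within those libraries. The fit of only the groups compared called 4 members for KO against WT at day 1, and DESeq2 called 5 at day 4. Causes of the other changes were not tested.

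With one library left out, members called were 0 to 3 for KO against WT at day 1, 1 to 4 at day 4, and 0 to 1 for each interaction, where Rab27b was called without KO day 1 replicate 1. Without KO day 1 replicate 2 or WT day 1 replicate 2 the day 1 count was 1 or 0, and without KO day 4 replicate 2 or WT day 4 replicate 3 the day 4 count was 1.

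Cargo minus machinery was 10.2, 10.6 and 4.46 in KO and 10.3, 10.5 and 5.125 in WT at days 0, 1 and 4 on FPKM. FPKM is per length, so these levels cannot be set against those of CPM. Gp2, Sycn and Cuzd1 each had 1 FPKM value in all 12 libraries of days 0 and 1. The FPKM version therefore could not show their change at the first step. With medians in place of means, cargo minus machinery on CPM was 6.999 and 2.24 in KO at days 1 and 4, and 8.80, 7.74 and 2.81 in WT at days 0, 1 and 4. Without Gp2 it was 1.81 in KO at day 4, and with a pseudocount of 2 it was 7.47 in WT at day 1.

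Replicate numbers recur across groups, but in no comparison did every same-numbered pair correlate above 0.1, the limit set for pairing (correlations −0.13 to 0.22, all positive in some comparisons), so the replicate block was not the main design. Same-numbered pairs still lay above all others in WT day 4 against day 1 (0.027 to 0.125, others −0.111 to −0.003). They also did in KO day 1 against day 0 (0.052 to 0.136, others −0.094 to 0.042). In the other comparisons the ranges overlapped. A link between same-numbered libraries across days is therefore not excluded. With the block, calls over all genes were 190 in place of 192 for KO against WT at day 1 and 1266 in place of 1350 at day 4, and 2 and 3 members were called as before. It changed no other member call. At day 0 Vamp2 rests on 59 to 77 counts a library, which limits its precision.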

Other observations

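Outside the members, genes of the stimulus pathway also differed between genotypes at day 4. Cckar, the cholecystokinin receptor, had 70.3 ± 10.6 CPM in KO and 104 ± 20 CPM in WT (SD, n = 3 each; log2 −0.57 ± 0.12, adjusted p = 0.0025, edgeR). Itpr3, an inositol trisphosphate receptor that releases stored calcium, had 49.4 ± 2.6 CPM in KO and 67.9 ± 3.4 CPM in WT (log2 −0.46 ± 0.10, adjusted p = 0.0017), and Itpr2, another, was lower by 0.34 ± 0.11 (adjusted p = 0.040). These were 3 of 16 genes tested on that list, beside 10.2% of all genes called at day 4 (6.39% lower and 3.83% higher). Without WT day 4 replicate 3 the list held 2 lower calls, and calls over all genes were 827 in place of 1350. Stx3, the apical syntaxin, went the other way, at 17.6 ± 0.2 CPM in KO and 13.5 ± 0.6 CPM in WT (log2 0.38 ± 0.10, adjusted p = 0.011).

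Endothelial markers, 6 listed and all detected, summed to 55.6–107 CPM in KO and 65.6–94.0 CPM in WT at day 0, 11.1–21.2 CPM in KO and 9.73–13.7 CPM in WT at day 1, and 0.286–1.31 CPM in KO and 0.594–2.93 CPM in WT at day 4.

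In the FPKM table, Gp2, Sycn and Cuzd1 each carried 1 identical value in all 12 libraries of days 0 and 1, and Zg16 and Rnase1 carried 2 values, while the counts of each of these genes took 12 distinct values there. A gene that keeps its rank in every library has the same value after quantile normalization, so at days 0 and 1 the FPKM table cannot show differences of Gp2, Sycn and Cuzd1 between genotypes or between these days. At day 4 their values differed between libraries, and Sycn had 188–223 FPKM in KO and 256–350.3 FPKM in WT. The results above rest on the counts.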
